A study of Mus musculus with 6 samples.

Results

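The keratin genes were taken as all protein-coding genes in the deposited counts whose mouse symbol is Krt followed by a number and at most 1 letter. Symbols of 54 genes fitted, and Krt74, which the annotation lists as a pseudogene, was left out. The remaining 53 genes, 28 of type I and 25 of type II, stood among 21942 protein-coding genes and 53465 genes in all. Their transcripts were compared between the 4T1 parental (P) and the 4T1 axitinib-resistant (AxR) lines, with 3 libraries of poly(A) RNA per line. The 4T1 line comes from a mammary carcinoma of the mouse and spreads from the mammary gland when grown in mice. The AxR line was derived in vivo from metastatic lesions that arose after surgery in mice given 100 mg/kg/day of axitinib, which blocks the VEGF receptor kinases. It was then kept in culture with axitinib at 0.5 μM for more than 2 months. The treatment labels give axitinib for the AxR samples alone, and the study describes its P cells as vehicle-treated, while the growth label names 0.5 μM axitinib for all 6 samples. The resistant cells are a single derived line, so resistance, growth in the mouse, the metastatic site and months in the drug cannot be told apart in this comparison.

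Keratins build the intermediate filaments of epithelial cells, in which an acidic type I chain always pairs with a basic type II chain. Simple epithelia, among them the luminal layer of the mammary gland, use Krt8 with Krt18, joined in many tissues by Krt7 and Krt19. Basal cells of stratified and glandular epithelia, the myoepithelial cells of the breast included, use Krt5 with Krt14, and differentiated epidermal cells use Krt1 with Krt10. Wounded or hyperproliferative epidermis adds Krt6a, Krt6b, Krt16 and Krt17, and hair and nail have hard keratins of their own.

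The estimated counts summed to between 15495260 and 17294525 per library. Levels are given as CPM, which scales the counts of a library to its normalized size and does not account for gene length. The floor was set at 3 counts, or 0.171 to 0.196 CPM depending on the library. Of all genes, 13550 had enough counts to be tested (edgeR, quasi-likelihood, Benjamini-Hochberg adjustment over these genes), and 63.5% of them passed an adjusted p of 0.05, with 32.8% higher and 30.8% lower in AxR. Calls were therefore common throughout the transcriptome, and the median log2 fold change of the genes tested was 0.0058. Neither the labels nor the study says whether replicates were separate cultures, so p-values measure only the spread between these libraries, which may be technical. The epithelial label was met by the markers, since Cdh1 (E-cadherin) had 556 ± 1.54 CPM (SD, n = 3) in P and 845 ± 7.02 CPM (SD, n = 3) in AxR, and Epcam had 75.4 ± 3.69 and 129 ± 11.5 CPM (SD, n = 3). Of the 8 epithelial markers listed, 7 were tested, and 3 were higher and 4 lower, beside 63.5% called over all genes tested. The higher ones were Cdh1, Epcam and Esrp1, the last with a log2 fold change of 0.82. Cldn7 (claudin-7) fell from 8.22 ± 1.18 to 0.751 ± 0.108 CPM (SD, n = 3), a log2 fold change of -3.43. Cldn3 fell from 61.2 ± 3.71 to 31.8 ± 3.40 CPM (SD, n = 3), a log2 fold change of -0.94. The other lower ones were Cldn4, from 242 to 215 CPM, and Ocln, from 51.4 to 43.3 CPM. Of 8 mammary luminal markers, 3 were tested and 1, Gata3, was lower, from 124 to 96.6 CPM, beside 30.8% lower over all genes tested. The other tested ones, Esr1 with 34.9 CPM in both lines and Foxa1 with 2.70 CPM in P and 3.06 CPM in AxR, did not pass. Elf5 had at most 1 count.

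4T1 cells transcribed a small, mainly simple-epithelial keratin set. Of the 53 keratin genes, 32 had 0 counts in all 6 libraries, 9 had at most 3 counts in their highest library, 5 had more but too few to be tested, and 7 were tested. The 7 tested genes were Krt7, Krt8, Krt18, Krt19 and Krt80 of the simple class, Krt14 of the basal class and Krt10 of the stratified suprabasal class. The classes are those listed for this description, and Krt80, a keratin of many epithelia, is simple only by that list. Of these, Krt7, Krt8, Krt14 and Krt18 were higher and Krt10 and Krt19 were lower in AxR, so that 6 of 7 passed, where 63.5% of all genes tested did. The same 6 genes had no overlap between the 3 P and the 3 AxR libraries, a pattern shown by 68.3% of all genes tested. Both shares are high over the transcriptome, so the count alone does not set keratins apart, and the sizes and identities of the changes carry the description.

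**Figure D1:**
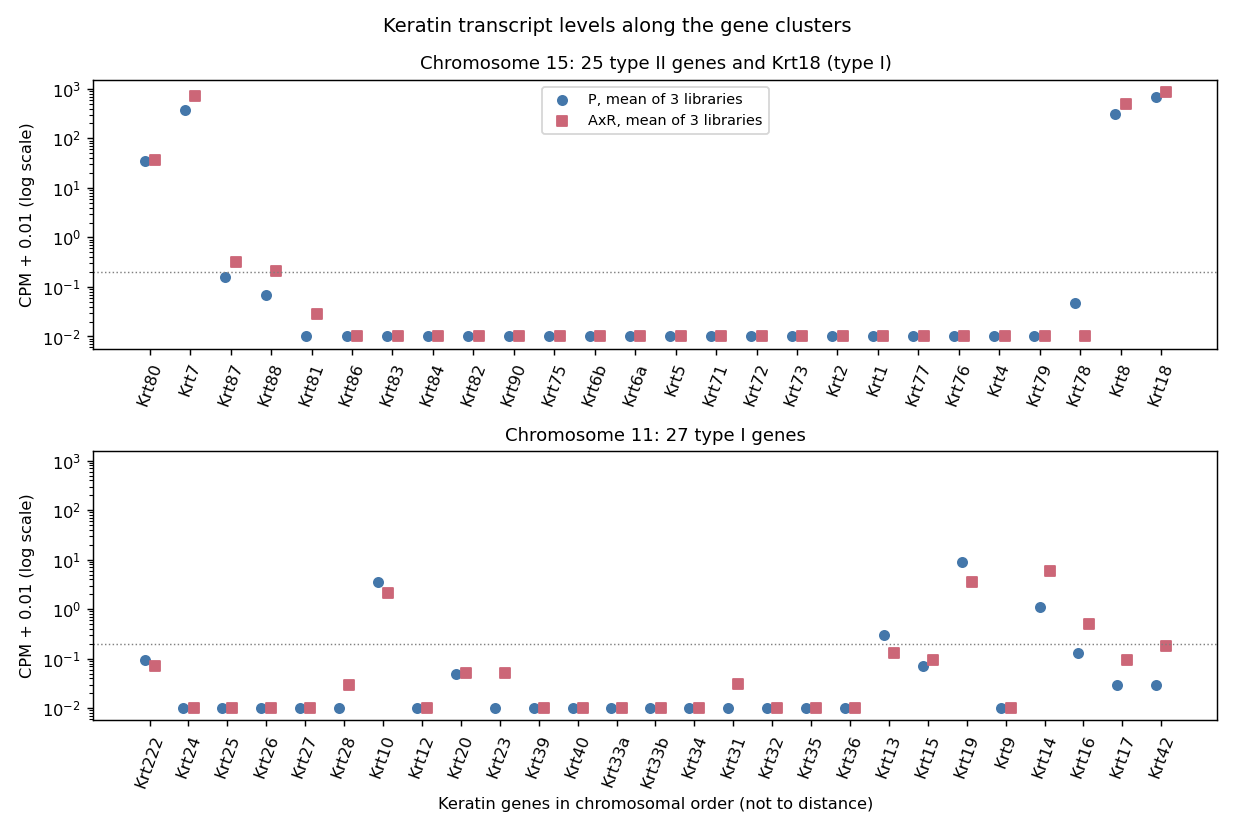
Mean CPM plus 0.01 on a log scale (vertical axis) of all 53 keratin genes in P (circles) and AxR (squares), in their order along chromosome 15 (top) and chromosome 11 (bottom), means of 3 libraries. The dotted line marks the floor of 3 counts. On chromosome 15 the expressed genes sit at the ends of the cluster (Krt80 and Krt7, Krt8 and Krt18), and the 22 genes between them lie near or under the floor.

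The tested genes sat at the ends of the keratin cluster on chromosome 15, but not on chromosome 11. In GRCm38, 26 keratin genes, the 25 of type II and Krt18, lie on chromosome 15 between 101347444 and 102032027, and the other 27, all of type I, lie on chromosome 11 between 99232761 and 100269871. On chromosome 15 the order began with Krt80 and Krt7 and ended with Krt8 and Krt18, and the 22 keratin genes between these ends had at most 6 counts in any library. Krt8 and Krt18 encode partner chains and are neighbours, 23697 bases apart on opposite strands with no annotated gene between them. On chromosome 11 the tested genes Krt10, Krt19 and Krt14 were scattered among 24 keratin genes that were not tested.

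Krt18 (ENSMUSG00000023043.6), the type I chain of simple epithelia, spans 102028180 to 102032027 of chromosome 15 in GRCm38, plus strand. It had 625, 724 and 678 CPM in P replicates 1 to 3 and 890, 845 and 865 CPM in AxR replicates 1 to 3. The lines did not overlap, and the lowest AxR library exceeded the highest P library. The mean rose from 676 ± 49.6 to 867 ± 22.2 CPM (SD, n = 3), a 1.28-fold change. The log2 fold change was 0.36 (SE 0.054, 95% confidence interval 0.24 to 0.47, adjusted p = 3.37e-05 by edgeR), beside a median of 0.12 over the genes tested on chromosome 15. Scaled by length, the Krt18 level stood above that of 99.2% of the genes tested.

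Krt8, the type II partner of Krt18, lies on chromosome 15 from 101996698 to 102004482 on the minus strand (ENSMUSG00000049382.9). Its level was 283, 338 and 318 CPM in the P replicates and 540, 488 and 479 CPM in the AxR replicates. The lines did not overlap, and the spread within each line was small beside the gap between them. The mean rose from 313 ± 27.9 to 502 ± 33.0 CPM (SD, n = 3), or 1.6-fold, with a log2 fold change of 0.68 (SE 0.066, 95% confidence interval 0.54 to 0.82, adjusted p = 5.93e-07 by edgeR).

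Krt7, a type II chain of ductal and glandular epithelia, lies on chromosome 15 from 101411043 to 101430313 on the plus strand (ENSMUSG00000023039.16). It had 344, 402 and 363 CPM in P and 771, 708 and 680 CPM in AxR. Every AxR library was well above every P library, and AxR replicate 1 was the highest, as it also was for Krt8, Krt18 and Krt14. The mean rose from 370 ± 29.5 to 720 ± 46.8 CPM (SD, n = 3), or 1.95-fold, with a log2 fold change of 0.96 (SE 0.062, 95% confidence interval 0.83 to 1.09, adjusted p = 6.61e-09 by edgeR). Of the 3 abundant keratins, Krt7 had the highest and Krt18 the lowest fitted change, and the 95% intervals of Krt7, Krt8 and Krt18 did not overlap one another, though those of Krt7 and Krt8 nearly met.

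Krt80, a type II keratin of many epithelia, is the neighbour of Krt7, 40880 bases away on the minus strand (ENSMUSG00000037185.8, chromosome 15 from 101347444 to 101370162). Its 3 P libraries had 33.6, 40.1 and 33.1 CPM and its 3 AxR libraries had 39.8, 34.3 and 36.2 CPM. The lines overlapped. The means were 35.6 ± 3.95 and 36.8 ± 2.76 CPM (SD, n = 3), and the log2 fold change was 0.045 with a 95% confidence interval from -0.14 to 0.23 (adjusted p = 0.661 by edgeR).

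Krt19, a type I keratin that lacks most of the tail domain and is widespread in ducts and glands, went the other way. It lies on chromosome 11 from 100140810 to 100148665 on the minus strand (ENSMUSG00000020911.14). It had 7.96, 9.30 and 9.39 CPM in P and 3.43, 3.51 and 3.75 CPM in AxR. The highest AxR library was below the lowest P library, and the AxR libraries lay close together. The mean fell from 8.88 ± 0.798 to 3.56 ± 0.170 CPM (SD, n = 3), which is 2.49-fold lower, with a log2 fold change of -1.31 (SE 0.13, 95% confidence interval -1.60 to -1.03, adjusted p = 6.57e-07 by edgeR). Within the simple class, 3 of the 5 tested genes were higher and 1 was lower, beside 63.5% called over all genes tested. The remaining simple keratins Krt20 and Krt23 had at most 2 counts in any library.

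**Figure D2:**
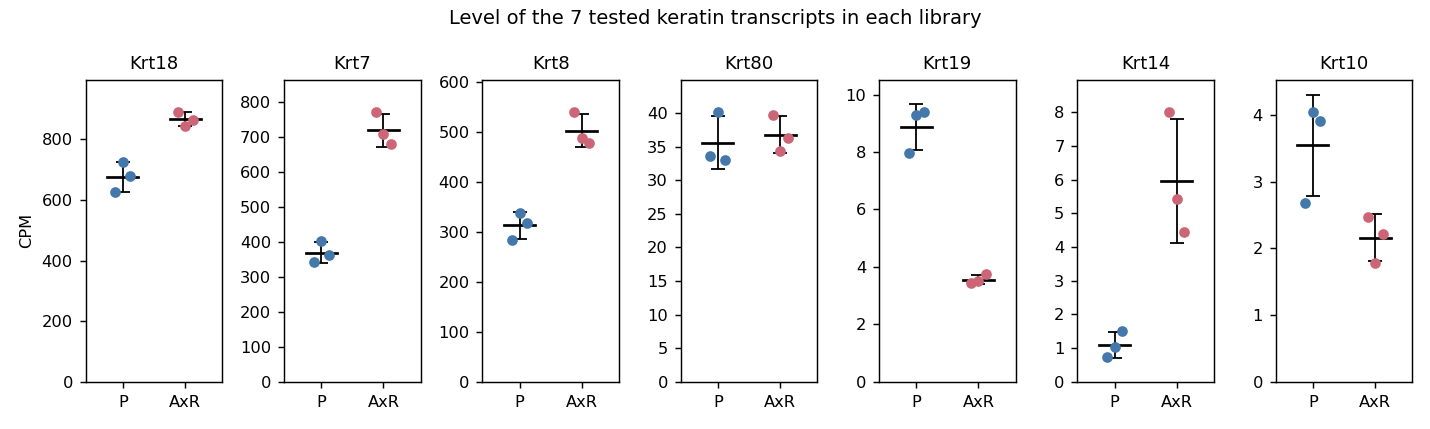
CPM of the 7 tested keratin transcripts in each library (vertical axis, from 0 and scaled per gene), with P and AxR along the horizontal axis, 1 point per library, bars for the mean and whiskers for the SD (n = 3). Points of the lines are apart for every gene other than Krt80, where they overlap.

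Krt14, the type I keratin of basal and myoepithelial cells, had the greatest change of the tested keratins, from a very low level. It lies on chromosome 11 from 100203162 to 100207548 on the minus strand (ENSMUSG00000045545.8). Its P libraries had 0.729, 1.04 and 1.5 CPM and its AxR libraries had 8.0, 5.42 and 4.44 CPM. The lines did not overlap, but the AxR libraries were more spread, relative to their mean, than for the other 6 tested keratins. The mean rose from 1.09 ± 0.388 to 5.95 ± 1.84 CPM (SD, n = 3), or 5.45-fold, with a log2 fold change of 2.45 (SE 0.28, 95% confidence interval 1.84 to 3.05, adjusted p = 3.59e-06 by edgeR). Even in AxR it remained minor, at 0.579% ± 0.167 of Krt18 per length against 0.136% ± 0.0458 in P (SD, n = 3).

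The usual partner of Krt14 was not seen. Krt5, the type II keratin of basal cells, had 0 counts throughout, and the counting floor for such a gene is 0.171 to 0.196 CPM per library. Krt15, a further basal type I keratin, had at most 2 counts. The type II chains with counts that could be tested were therefore Krt7, Krt8 and Krt80. In bulk RNA, a few cells with much Krt14 and many cells with little cannot be told apart, and no deposited value here tells whether Krt14 RNA was made in the same cells as Krt8 and Krt18.

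Markers of myoepithelial cells were read beside Krt14. Their summed level over 6 genes lay between 1.04 and 1.88 CPM in the P libraries and between 27.9 and 32.1 CPM in the AxR libraries. Most of it was Mylk, myosin light chain kinase, at 1.27 ± 0.425 and 28.7 ± 2.31 CPM (SD, n = 3), and the other tested marker was Trp63, which encodes the basal regulator p63. The contractile markers Acta2, Myh11, Cnn1 and Oxtr had at most 4, 2, 6 and 2 counts in any library. The part of this list in the Krt14 result was not tested. Markers of other cell types that a culture from a lesion could hold were also read. Leukocyte markers summed to 0.0652 to 0.365 CPM in P and 0.128 to 0.284 CPM in AxR. Of these, Ptprc had at most 2 counts and Lyz2 at most 5 in any library, and Tyrobp, Fcer1g and Cd3e had 0. Endothelial markers summed to 0.425 to 0.635 CPM in P and 0 to 0.191 CPM in AxR, with Emcn and Kdr at 0. Among them, Pecam1 had at most 6 counts in any library, and Cdh5 had 7, 4 and 5 counts in P and 0, 0 and 1 in AxR. Fibroblast markers summed to 22.5 to 24.1 CPM in P and 9.91 to 11.2 CPM in AxR, nearly all of it Pdgfra, with Col3a1 and Lum at 0. Col1a1 had at most 14 counts in any library. Lung epithelial markers summed to 0.577 to 1.15 and 4.15 to 4.21 CPM, in AxR mostly Foxj1, with Scgb1a1 and Nkx2-1 at 0 and Sftpc at up to 2 counts.

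Krt16 and Krt14 share long identical stretches, which bears on the low counts of both. Krt16, a type I keratin of wounded epidermis, had 5, 1 and 0 counts in P and 9, 10.12 and 5 counts in AxR, and was left untested by the filter on low counts. Without that filter it passed as higher in AxR (log2 fold change 1.95, adjusted p = 0.0165 by edgeR), which made 5 higher keratins. The lines met at 5 counts, which P replicate 1 and AxR replicate 3 both had. Its fractional count in AxR replicate 2 shows that reads were divided between genes there. The longest identical stretch of the 2 transcripts is 134 coding bases in exon 1 of both genes, at chr11:100207017-100207150 in Krt14 and chr11:100248476-100248609 in Krt16, both on the minus strand of GRCm38. It is shown because reads that fall wholly within it cannot be assigned to either gene by sequence.

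Krt14 and Krt16: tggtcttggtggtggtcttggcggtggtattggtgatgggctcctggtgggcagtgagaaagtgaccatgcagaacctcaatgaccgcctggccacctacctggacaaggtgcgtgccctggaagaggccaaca

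The same comparison gave identical stretches of at most 71 bases between Krt14 and Krt17 and of 49 bases between Krt14 and Krt42. With the counts of Krt16 joined to those of Krt14, the counts of higher and lower keratins stayed at 4 and 2. Krt16 was itself untested and much lower in counts than Krt14 in AxR, so the joining could hardly alter them. It does not show how reads were shared. Krt17, a stress keratin of basal cells, had at most 2 counts, and Krt6a and Krt6b, the type II partners of Krt16 and Krt17, had none. The stress class therefore held no member with enough counts for the test.

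Krt10, the type I keratin of differentiating epidermal layers, was low in both lines and lower in AxR. It lies on chromosome 11 from 99385254 to 99389364 on the minus strand (ENSMUSG00000019761.10). It had 2.67, 4.04 and 3.91 CPM in P and 2.48, 1.79 and 2.22 CPM in AxR. The lines did not overlap, but P replicate 1 lay close above AxR replicate 1. The mean fell from 3.54 ± 0.755 to 2.16 ± 0.349 CPM (SD, n = 3), which is 1.64-fold lower, with a log2 fold change of -0.71 (SE 0.21, 95% confidence interval -1.17 to -0.25, adjusted p = 0.0094 by edgeR). Its partner Krt1 had no count in any library. An antisense gene that overlaps 146 exonic bases of Krt10, Gm11940, had at most 3 counts.

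For each of the 6 genes that passed, an exact two-sided permutation test over the 6 libraries gave p = 0.1, the smallest that 3 against 3 allows, and for Krt80 it gave p = 0.6.

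**Figure D3:**
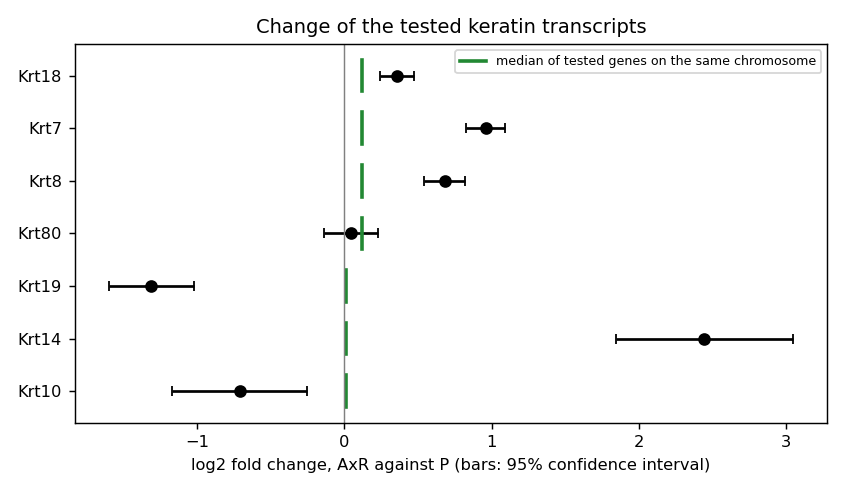
Fitted log2 fold change of AxR against P (horizontal axis) for the 7 tested keratin transcripts, with 95% confidence intervals from edgeR, and the median of all tested genes of the same chromosome as a green bar (0.12 for chromosome 15, 0.0077 for chromosome 11). Krt14 lies farthest to the right at 2.45, Krt19 farthest to the left at -1.31, and the interval of Krt80 spans 0.

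The other keratin classes were nearly silent. Of the 12 stratified suprabasal keratins, 9 had no count, among them Krt1, Krt4 and Krt2, and Krt13, the mucosal partner of Krt4, had 7, 2 and 5 counts in P and 0, 4 and 2 in AxR, which overlap. Of the 15 hair and nail keratins found, 12 had no count, Krt31 and Krt81 had 1 count in all and Krt87 had at most 6. Krt85, listed in that class too, was not among the symbols matched. Of the 8 inner root sheath and companion layer keratins, 7 had no count and Krt28 had 1. Of the 4 genes that the classes do not cover, Krt90 had none and Krt222, Krt88 and Krt42 had at most 3, 4 and 6 counts. Fitted without the filter, Krt13, Krt42, Krt87 and Krt88 had adjusted p = 0.293, 0.115, 0.338 and 0.240 by edgeR, so no difference was detectable for them at this depth.

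Levels were compared between genes per length, as FPKM, the CPM divided by the length of the principal transcript in kilobases. The order was Krt18, Krt8, Krt7, Krt80, Krt19 in both lines. Krt18 had 470 FPKM in P and 603 FPKM in AxR, Krt8 had 160 and 257 FPKM, and Krt7 had 90.3 and 176 FPKM. Krt80 followed at 11.6 and 12 FPKM and Krt19 at 5.64 and 2.26 FPKM. At the bottom, Krt10 had 1.69 and 1.03 FPKM and Krt14 had 0.642 and 3.51 FPKM, so that Krt14 was the last of the 7 in P and stood above Krt19 and Krt10 in AxR. The 3 most abundant transcripts, Krt18, Krt8 and Krt7, made up 97.3% ± 0.0419 of the summed keratin FPKM in P and 98.1% ± 0.113 in AxR (SD, n = 3).

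Summed over all 53 genes, the keratin level was 1298, 1519 and 1408 CPM in P and 2256, 2088 and 2072 CPM in AxR, without overlap. The AxR mean was 1.52 times the P mean. The type II sum was 1.70 times as high in AxR, at 262 ± 22.3 FPKM in P and 445 ± 28.9 FPKM in AxR (SD, n = 3), and the type I sum was 1.28 times as high, at 479 ± 35.2 and 611 ± 16.5 FPKM (SD, n = 3). Krt18 alone made 98.3% of the type I sum in P and 98.8% in AxR. Krt8 made 61.0% ± 0.841 and 57.7% ± 0.218 of the type II sum, and Krt7 34.5% ± 0.597 and 39.5% ± 0.314 (SD, n = 3), so the type II pool held relatively more Krt7 in AxR.

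The ratio of type II to type I transcripts, which varies little among libraries of a line, was therefore higher in AxR. It was 0.542, 0.555 and 0.545 in P and 0.760, 0.729 and 0.695 in AxR. The lines did not overlap. Its size depends on the length used: with coding length it was 0.937 ± 0.0127 in P and 1.29 ± 0.0586 in AxR, and with the union of all annotated exons 0.456 ± 0.00575 and 0.598 ± 0.0266 (SD, n = 3). Whether type II transcripts outnumber type I transcripts is thus not settled by these counts. The ratio was higher in AxR under the 3 lengths, but the length of a gene is the same in every library. With Krt7 and Krt8 rising more than Krt18, the choice of length could hardly reverse the direction, so it is no separate check. Krt8 relative to Krt18 went from 0.340 ± 0.00631 to 0.425 ± 0.0196, and Krt7 relative to Krt8 from 0.565 ± 0.0174 to 0.685 ± 0.00803 (SD, n = 3), with no overlap between lines in either (exact permutation p = 0.1, the smallest possible). With coding length, Krt7 exceeded Krt8, at 1.27 ± 0.0391 and 1.54 ± 0.0180 times its level (SD, n = 3), since the Krt7 transcript of 4094 bases holds 1371 coding bases and the Krt8 transcript of 1958 bases holds 1470.

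**Figure D4:**
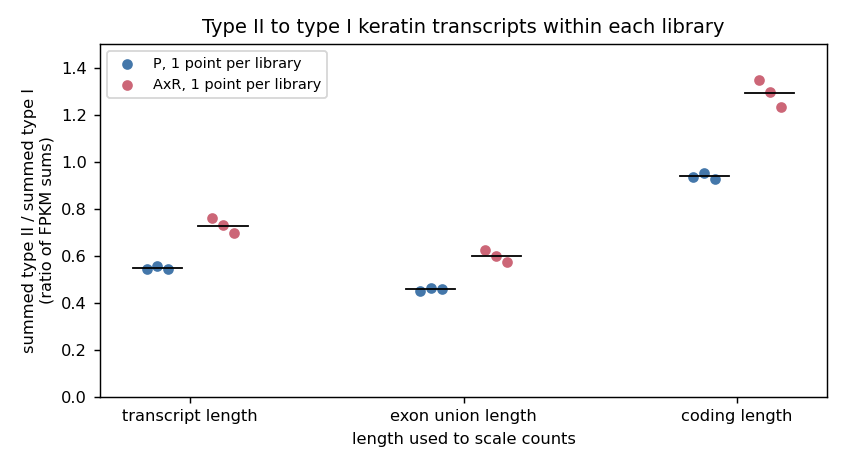
Ratio of summed type II to summed type I keratin FPKM (vertical axis, from 0) in each library, for 3 lengths used to scale the counts (horizontal axis), 1 point per library and a bar at the mean of 3. AxR lies above P for each length, which the choice of length could hardly alter, and the transcript length gives means of 0.547 in P and 0.728 in AxR.

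Krt8 has a near copy that takes counts of its own. The processed pseudogene Krt8-ps (ENSMUSG00000109325.1, chromosome 7 from 23357125 to 23358069 on the plus strand) matched Krt8 at 98.6% identity over 941 bases. It was assigned 29.1 ± 3.10 CPM in P and 47.8 ± 3.10 CPM in AxR (SD, n = 3), which is 9.30% and 9.51% of the Krt8 counts, and its log2 fold change was 0.72 beside 0.68 for Krt8. How many of these reads came from Krt8 cannot be told from the deposited counts. The longest stretch the 2 share without a difference is 299 coding bases of Krt8, in its exons 2, 3 and 4 at chr15:102001417-102001583, chr15:102000580-102000640 and chr15:101999456-101999526 on the minus strand, and at chr7:23357509-23357807 in the pseudogene. It is shown because reads within it match both genes equally.

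Krt8 and Krt8-ps: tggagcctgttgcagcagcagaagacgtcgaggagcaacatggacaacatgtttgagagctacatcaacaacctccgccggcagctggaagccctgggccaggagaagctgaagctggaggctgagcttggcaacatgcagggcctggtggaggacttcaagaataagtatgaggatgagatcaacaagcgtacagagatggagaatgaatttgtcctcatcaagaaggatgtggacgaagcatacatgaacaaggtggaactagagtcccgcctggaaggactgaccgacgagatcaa

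Joining the counts of Krt8-ps to those of Krt8 changed the ratio of type II to type I transcripts to 0.578 in P and 0.768 in AxR. Krt18 also has a near copy, Gm5200, at 90.5% identity over 1267 bases, but this had at most 5 counts in any library.

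Promoter sequence was read from RefSeq (GRCm38.p6), with 250 bases before and 50 bases after the start, and 36 of the 53 members, 5 of them tested, had an entry. Those of Krt18 and Krt7, which rose, and of Krt10, which fell, are shown because their starts lay within 36 bases of the GENCODE start. The Krt8 and Krt14 windows began from starts 140 and 1518 bases downstream of it and are not printed. Capitals mark matches, on either strand, to TATAAA, known as the TATA box. They also mark the GC box, with the letters GGGCGG. The third motif marked is that of AP-2 factors, written GCCNNNGGC. The Krt18 window is chr15:102027966-102028265 on the plus strand, that of Krt7 is chr15:101412153-101412452 on the plus strand, and that of Krt10 is chr11:99389315-99389614 on the minus strand.

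Krt18: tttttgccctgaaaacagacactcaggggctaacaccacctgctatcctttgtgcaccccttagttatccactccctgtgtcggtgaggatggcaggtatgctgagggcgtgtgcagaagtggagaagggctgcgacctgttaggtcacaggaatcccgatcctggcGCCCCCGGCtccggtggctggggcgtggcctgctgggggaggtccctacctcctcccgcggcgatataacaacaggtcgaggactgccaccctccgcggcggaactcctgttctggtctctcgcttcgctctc
Krt7: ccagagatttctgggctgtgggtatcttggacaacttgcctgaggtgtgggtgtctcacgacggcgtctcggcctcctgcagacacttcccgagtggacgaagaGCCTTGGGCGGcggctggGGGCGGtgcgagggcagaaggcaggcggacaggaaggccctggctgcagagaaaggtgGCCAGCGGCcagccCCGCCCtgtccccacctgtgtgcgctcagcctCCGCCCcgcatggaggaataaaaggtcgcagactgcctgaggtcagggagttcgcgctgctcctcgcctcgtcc
Krt10: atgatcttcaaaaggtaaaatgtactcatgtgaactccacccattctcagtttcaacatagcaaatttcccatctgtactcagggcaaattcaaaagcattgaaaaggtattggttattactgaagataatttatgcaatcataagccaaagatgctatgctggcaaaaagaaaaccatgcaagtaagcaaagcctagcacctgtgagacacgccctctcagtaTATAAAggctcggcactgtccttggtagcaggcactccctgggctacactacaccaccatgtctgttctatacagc

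The Krt7 window held 4 GC box matches, 141, 128, 56 and 24 bases before the start, and 2 AP-2 matches at 146 and 70 bases before it, of which the first overlaps a GC box. The Krt18 window held a single AP-2 match 83 bases before the start, and the Krt10 window held a TATA box match 26 bases before it. GC content was 66.3% for Krt7, 61.3% for Krt18 and 42.0% for Krt10, beside a median of 52.7% over all promoters. Over 32851 mouse promoters of the same length, 13.6% held the TATA box, 35.7% the GC box and 16.6% the AP-2 motif. These matches describe letters in a window and are not binding sites.

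Genes of the other intermediate filaments were read beside the keratins. Of 15 listed genes, 6 were tested, of which 3 were higher and 1 was lower, close to the 63.5% called over all genes tested, with a median log2 fold change of 0.21 where that of all genes tested was 0.0058. Vim, the vimentin of mesenchymal and many carcinoma cells, had 1302, 1280 and 1330 CPM in P and 732, 696 and 728 CPM in AxR. It fell by 0.86 on the log2 scale (SE 0.045, adjusted p = 3.73e-10 by edgeR), while the keratin sum over the same libraries was higher. Lmnb1, a lamin of the nuclear lamina, rose from 48.8 ± 1.58 to 141 ± 21.5 CPM (SD, n = 3). Its log2 fold change was 1.53, beside a median of 0.50 over the genes tested on chromosome 18. Nes (nestin) had a log2 fold change of 0.31, beside a median of 0.32 over the genes tested on chromosome 3.

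Genes that anchor or organize keratin filaments were called about as often as genes in general. Of 20 listed genes, 19 were tested, 6 were higher and 7 lower, beside 32.8% higher and 30.8% lower over all genes tested, and the median log2 fold change was 0.053. Pkp1, a desmosomal plakophilin, had 2.55, 3.12 and 3.39 CPM in P and 13.1, 12.2 and 12.2 CPM in AxR (log2 fold change 2.05, SE 0.13, adjusted p = 4.24e-09 by edgeR). Eppk1 (epiplakin), a cytolinker that binds keratins, rose from 26.9 ± 1.51 to 73.6 ± 3.09 CPM (SD, n = 3). Dsp (desmoplakin), the main link from keratin filaments to desmosomes, had 302, 295 and 311 CPM in P and 167, 163 and 159 CPM in AxR, so all AxR libraries were below all P libraries, with a log2 fold change of -0.89. The largest falls past the test were in Evpl (envoplakin), from 2.45 ± 0.506 to 0.466 ± 0.131 CPM, and in Col17a1, a hemidesmosomal collagen, from 1.17 ± 0.178 to 0.489 ± 0.225 CPM (SD, n = 3). In AxR, Evpl had 5, 8 and 10 counts and Col17a1 had 4, 11 and 9, so both met the low-count filter only with their P libraries, which favoured this direction. Plec (plectin) and Itgb4, which hold keratins at hemidesmosomes, did not pass, with log2 fold changes of 0.10 and -0.06 (adjusted p = 0.215 and 0.360 by edgeR). Other hemidesmosome genes of the list, Itga6 and Dst, were lower, with log2 fold changes of -0.43 and -0.41 (adjusted p = 2.91e-06 and 1.30e-05 by edgeR).

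Among 22 regulators of epithelial differentiation, 16 were tested, 4 were higher and 7 lower, also a share near the 63.5% called over all genes tested, with a median log2 fold change of -0.17. Trp63, the p63 regulator of basal keratin genes, had at most 2 counts in each P library and 0.953, 1.08 and 1.31 CPM in AxR, at least 5.70-fold higher against the highest library floor of 0.196 CPM. It met the low-count filter through its AxR libraries alone, with 15, 17 and 23 counts, so once tested it could hardly be other than higher. Tfap2c, an AP-2 factor, rose from 1.33 ± 0.335 to 2.45 ± 0.0904 CPM, while its relative Tfap2a fell from 92.7 ± 8.26 to 50.4 ± 1.89 CPM (SD, n = 3). Ovol1, a repressor in epidermal differentiation, had a log2 fold change of -0.84.

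**Figure D5:**
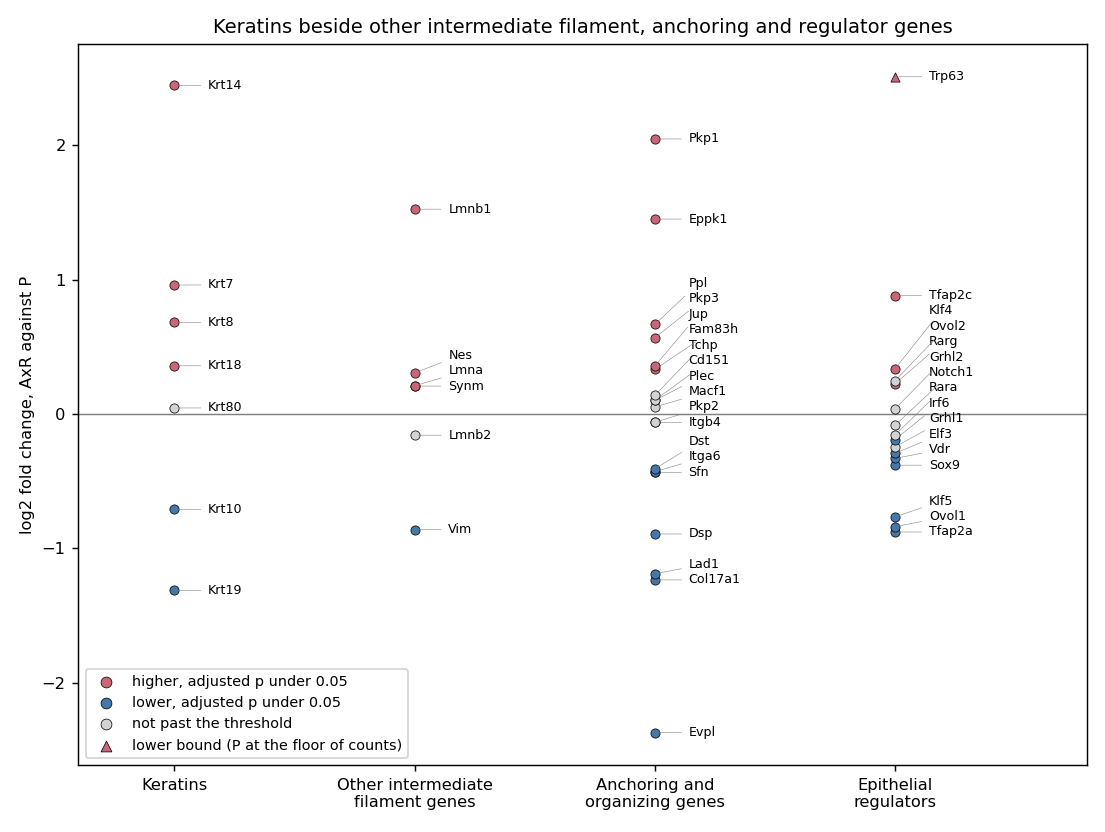
Log2 fold change of AxR against P (vertical axis) for the tested keratins and the tested genes of 3 other lists (horizontal axis), 1 point per gene, red where higher and blue where lower at an adjusted p under 0.05 and grey otherwise. Trp63 is drawn as a triangle at its lower bound, and each of the 4 groups holds genes on both sides of 0.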

How the data were processed

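The data were RNA sequencing of poly(A) RNA from 3 P and 3 AxR samples, with stranded libraries per the labels. Per the labels and the study's methods, reads were examined with FastQC 0.11.5 and then aligned by STAR 2.6.0a to GRCm38 (annotation GENCODE M16). The authors deposited expected counts per gene estimated by RSEM 1.3.1, which splits a read that fits more than 1 gene between these genes, and 10.3% to 10.7% of values per library were not whole. The strand setting of the counting is not given in the sources used here. Counts precede any filter or normalization.

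Counts were rounded, filtered with filterByExpr (minimum count 10), scaled by upper quartile factors and fitted by robust quasi-likelihood in edgeR 4.0.16 (R 4.3.3), with the line as the only term and Benjamini-Hochberg adjustment over 13550 genes. Permutation tests used log2(CPM + 0.5). Symbols, positions and transcript lengths came from GENCODE M21, where 53360 of 53465 identifiers were found. Near copies were searched with BLAST 2.17.0 (at least 90% identity over 250 bases). Replicates of a line differed by more than sampling noise (chi-square per degree of freedom 4.75 to 17.9), so none was merged. Floors cover counting error only.

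The keratin genes, their classes and the lists of filament, anchoring, regulator, cornified envelope and cell type marker genes were chosen with earlier results of these data known. Keratins past the filter are named with every library, others with over 3 counts by their highest count. From each list, the 2 highest and 2 lowest log2 fold changes past the threshold and the markers listed first are named. Dsp, Plec, Itgb4, Pdgfra, Foxj1, Krt8-ps and other genes outside these rules were named after their values were seen. Alternatives were TMM, library size only, DESeq2 1.42.0, limma-voom (limma 3.58.1), other count filters, unrounded counts, the replicate number as a block, a fold threshold and leaving out each library. Joining counts of near copies and the exon union and coding lengths were added after seeing the data.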

Additional observations from a re-analysis of the deposited data

How the results depend on the processing

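In every alternative that kept the threshold at an adjusted p of 0.05, 4 keratins were higher and 2 lower, except without the low-count filter, where 5 were higher. With a further requirement of 1 or more for the size of the log2 fold change, 1 keratin was higher (Krt14) and 1 lower (Krt19), with 1083 genes higher and 640 lower in all. Over 16 alternatives each, the log2 fold change lay between 2.18 and 2.73 for Krt14, 0.91 and 1.03 for Krt7, 0.62 and 0.74 for Krt8, 0.31 and 0.41 for Krt18, -1.38 and -1.27 for Krt19 and -0.87 and -0.59 for Krt10, whose highest adjusted p was 0.0478. Krt80 passed in none. With each library left out in turn its log2 fold change ranged from -0.0094 (without AxR replicate 1) to 0.14 (without P replicate 2), and it was -0.0010 without P replicate 3. Cdsn lost its call in 6 settings and Sbsn in 2. The type I sum with coding length was 543 FPKM in P and 692 FPKM in AxR. The type II sum was 218 and 365 FPKM with the exon union length and 509 and 894 FPKM with coding length, a move that follows from the lengths by construction. The lines share replicate numbers, but the deviations of same-numbered libraries from their line means correlated at -0.0213, -0.0061 and -0.0217, so the numbers gave no sign of pairing. With the replicate block, 4304 genes were higher and 4023 lower, and the keratin counts stayed at 4 and 2. At this depth a keratin under about 0.171 to 0.196 CPM could not be told from absent.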

Other observations

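The cornified envelope, the protein shell that keratinizing cells build around their keratin filaments, had few transcripts in both lines. Of 20 listed genes, 14 had 0 counts throughout and 17, these included, had at most 3, among them Lor, Ivl, Flg and the Sprr genes listed. The 2 tested genes were both higher in AxR, beside 32.8% of all genes tested. Cdsn (corneodesmosin), an adhesion protein of cornified cells, had 49.2, 41.5 and 38.0 CPM in P and 46.7, 52.5 and 62.0 CPM in AxR, and the lines overlapped (log2 fold change 0.33, adjusted p = 0.033 by edgeR's quasi-likelihood test). Sbsn (suprabasin) had 0.912, 0.231 and 0.782 CPM in P and 1.65, 1.91 and 1.02 CPM in AxR (log2 fold change 1.25, adjusted p = 0.014 by edgeR's quasi-likelihood test). Neither call held in all alternatives. Sbsn had 15.34, 4.29 and 12.5 counts in P and 26, 30 and 18.46 in AxR, and met the low-count filter only with the help of its AxR libraries. The filter thus favoured its direction, and its place among the higher genes is no support.

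The neighbours of the keratin clusters were counted as a description. Of the 10 nearest tested genes before the chromosome 15 cluster, 4 were higher and 2 lower, with a median log2 fold change of 0.15, and of the 10 after it 5 were higher and 1 lower, with a median of 0.17. On chromosome 11 the 10 before the cluster held 2 higher and 3 lower genes (median -0.13), and the 10 after it 4 higher and 4 lower (median 0.12). Over all genes tested, 32.8% were higher and 30.8% lower, so calls among neighbours are common anywhere in the genome. No gene other than keratins was tested within the chromosome 15 cluster.

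Over the 37 promoters that RefSeq lists for keratin genes, 19 held the TATA box, where 13.6% of all mouse promoters did, and 2 held the GC box, where 35.7% did. The AP-2 motif was found in 7, where 16.6% of all promoters held it, and the AP-1 motif, written TGANTCA, in 2, where 7.81% did. Each motif was searched on both strands, and no factor binding was measured.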
